A study of Rattus norvegicus with 16 samples.

Results

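The late phase of the knee-joint response to monosodium iodoacetate (MIA) was described by comparing the arrays of rats killed 28 days after the injection with those of intact rats. Of the 16 arrays in the series, 8 belonged to this comparison, 4 labelled day 28 and 4 labelled day 0. The day 28 rats were male Wistar animals given 3 mg of MIA in the right knee, and the intact rats were male Wistar animals that received no injection, neither MIA nor vehicle. Each array carried the pooled RNA of 2 rats according to the methods, so that 8 rats stood behind each group, whereas the labels give a single animal number per array. The tissue was the meniscus with the articular cartilage of tibia and femur, and small parts of joint capsule and bone came with it. The same control group served every day of the study, and the effects of MIA, of the injection and of the time that had passed cannot be told apart. Every probe set of the array was kept, 36685 in all, and the 18166 genes below were those with a probe set annotated with exactly 1 symbol, each represented by its brightest probe set.

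MIA blocks glyceraldehyde-3-phosphate dehydrogenase, an enzyme of glycolysis, and in the rat knee it kills chondrocytes and is followed by loss of proteoglycan, synovial inflammation and remodelling of the bone beneath the cartilage. Cartilage is built from collagen II and aggrecan and is cut by metalloproteinases and by aggrecanases of the ADAMTS family. The joint also holds a synovial lining, a fat pad behind the patellar tendon, ligaments and marrow-filled bone, and RNA from all of these can enter a sample taken with capsule and bone.

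The values are log2 intensities, so that a difference of 1 is a 2-fold difference in mRNA abundance, and levels are compared only between arrays of the same probe set. The joint origin of the tissue was visible on every array. Prg4, the lubricating proteoglycan of the joint surface, stood at 13.06, 12.91, 12.88 and 12.95 on the day 28 arrays and 12.93, 12.96, 13.04 and 13.02 on the intact arrays. Col2a1, the main collagen of cartilage, stood at 11.14, 10.44, 11.46 and 9.78 on the day 28 arrays and 12.28, 11.90, 12.21 and 11.24 on the intact arrays, and 3 of the 4 day 28 arrays lay below every intact array (log2 difference -1.21 ± 0.66, adjusted p = 0.29). The aggrecan core protein gene Acan (log2 difference 0.64 ± 0.36, adjusted p = 0.3) and the chondrocyte transcription factor gene Sox9 (0.04 ± 0.11, adjusted p = 0.87) did not pass the test either. Comp was not analysed here. The arrays correlated at 0.9819 to 0.9876 within day 28, at 0.9761 to 0.9866 within intact and at 0.962 to 0.9806 between the groups. Skeletal muscle RNA varied strongly within both groups, as the mean over 23 muscle genes ran from 6.31 to 8.78 on the day 28 arrays and from 6.74 to 9.97 on the intact arrays, and none of these genes was called (limma), passed at an unadjusted p under 0.05 or passed the methods' t-test after adjustment.

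At day 28, 1994 genes were higher and 1738 were lower than in intact knees (limma, Benjamini-Hochberg adjusted p under 0.05), which is 11% and 9.57% of the genes tested. The same shares stand behind every list count below, and a count near them is no result about the list. The falls were the larger changes. More than 2-fold differences were found for 162 genes with a rise (0.892% of genes) and for 411 with a fall (2.26%), and differences of more than 4-fold for 8 and 91 genes. Over all genes the median difference was 0.013. Quantile normalisation of the arrays keeps such a median near 0, so that it serves as a reference for the lists and is no result. Over all probe sets, 2848 were higher (7.76%) and 2368 lower (6.45%), of which 218 (0.594%) and 540 (1.47%) differed by more than 2-fold, and the arrays of the groups did not overlap for 10.2% in the higher and 8.04% in the lower direction. Among genes, the 2 groups did not overlap for 14.8% in the higher direction and for 11.9% in the lower direction. For context, 140 genes (0.771%) differed between day 28 and day 14, and 5757 genes (31.7%) between day 28 and day 2.

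**Figure D1:**
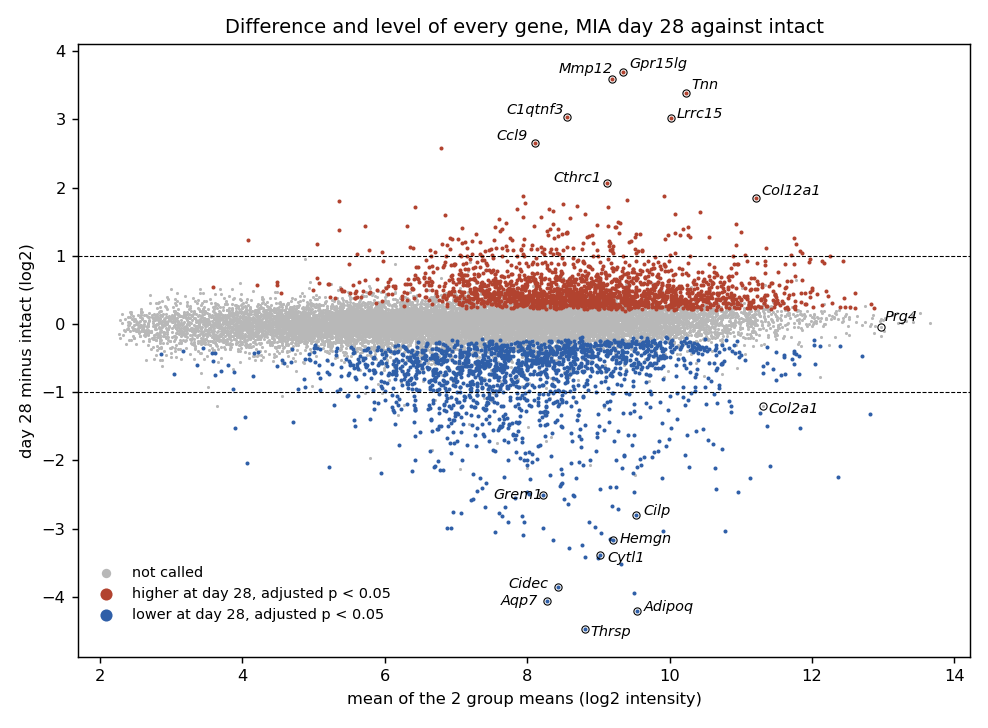
Log2 difference (day 28 minus intact, vertical axis) against the mean of the group means (log2 intensity, horizontal axis) for 18166 genes, each point 1 gene, coloured where the adjusted p was under 0.05; dashed lines mark a 2-fold difference. Falls reach -4.47 for Thrsp and rises reach 3.70 for Gpr15lg.

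The 15 largest rises and falls were picked among called genes whose groups did not overlap. The falls included the fat cell genes Adipoq, Aqp7, Nnat and Fabp4, the chondrocyte gene Cytl1 and the red cell gene Hemgn, and the rises included matrix genes, metalloproteinases, the osteoclast gene Atp6v0d2 and the tendon gene Tnmd. Gpr15lg, a small secreted peptide known in mouse and man as a ligand of the receptor GPR15, was at 11.32, 10.62, 11.05 and 11.79 on the day 28 arrays and 7.73, 7.65, 7.53 and 7.10 on the intact arrays, which made it the gene with the largest rise (log2 difference 3.70 ± 0.23, adjusted p = 2.1e-07). Mmp12, the elastase of macrophages, was at 11.39, 10.88, 10.96 and 10.71 on the day 28 arrays and 8.08, 7.35, 7.19 and 6.95 on the intact arrays. Its difference was 3.59 ± 0.26, adjusted p = 6.8e-07. In both genes the lowest day 28 array stood far above the highest intact array. Ccl9, a rodent chemokine that attracts myeloid cells, rose by 2.65 ± 0.21 (adjusted p = 1.8e-06). Rgs1, a brake on G-protein signalling in leucocytes, was higher too (adjusted p = 0.0003), at 6.94, 5.89, 5.90 and 6.31 on the day 28 arrays and 4.30, 4.63, 4.52 and 4.39 on the intact arrays. The intact values lie below a level of 5, taken here as dim, so that the size of its difference is uncertain, and the methods' t-test did not call it (adjusted p = 0.0558). Lancl3, a member of the LanC-like family, rose by 2.59 ± 0.17 (adjusted p = 2.4e-07).

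**Figure D2:**
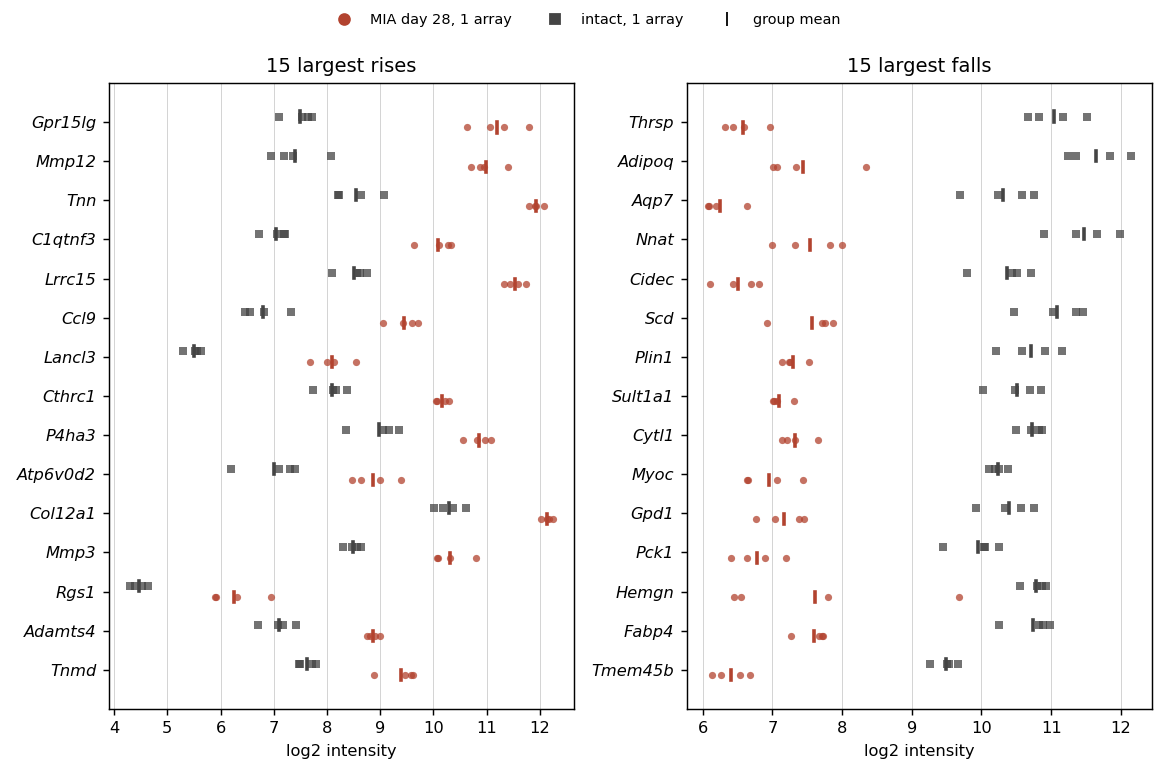
Log2 intensity (horizontal axis) of the 15 genes with the largest rise (left) and the 15 with the largest fall (right) among called genes without overlap; circles are day 28 arrays, squares are intact arrays and bars are group means. Hemgn shows the widest spread at day 28, from 6.45 to 9.67.

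Fat cells store triacylglycerol in lipid droplets and release adipokines, and in the knee they fill the fat pad and much of the marrow. All 22 measured genes of the fat cell list were lower at day 28, 19 of them by more than 2-fold, with a median difference of -2.11 against 0.013 over all genes. Adipoq, the adipokine adiponectin, was at 7.07, 7.34, 8.34 and 7.01 on the day 28 arrays and 11.24, 11.85, 11.36 and 12.15 on the intact arrays (log2 difference -4.21 ± 0.28, adjusted p = 3.4e-07, 18.5-fold lower). Day 28 replicate 3 kept the highest level, and even that array lay far below every intact array. Fabp4, the fatty acid carrier of fat cells, was at 7.72, 7.26, 7.71 and 7.67 on the day 28 arrays and 10.26, 10.82, 10.89 and 10.98 on the intact arrays (log2 difference -3.15 ± 0.17, adjusted p = 7.7e-08). Pparg, the nuclear receptor that directs fat cell formation, was lower (log2 difference -2.65 ± 0.22, adjusted p = 2.3e-06), as was Lep, the satiety hormone leptin (log2 difference -2.10 ± 0.24, adjusted p = 3.5e-05). The difference was -4.07 for Aqp7, the glycerol channel of fat cells, -3.94 for Nnat, a small membrane proteolipid, and -2.68 for Retn, the adipokine resistin. Over the list, the mean level was 7.30 to 7.66 at day 28 and 9.18 to 10.0 in intact knees. From pooled tissue RNA, fewer cells of a type and less RNA per cell cannot be told apart, here and for every cell type list below.

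The genes of fat storage fell with the fat cell markers. Of 17 measured genes of lipid droplets and lipolysis, 10 were lower and none was higher (median -0.75), while without intact replicate 2, 2 were called higher. Cidec, which fuses lipid droplets, was at 6.70, 6.10, 6.81 and 6.44 on the day 28 arrays and 9.80, 10.52, 10.44 and 10.71 on the intact arrays (log2 difference -3.86 ± 0.21, adjusted p = 7.7e-08). Plin1, the droplet coat protein that guards the stored fat, showed a log2 difference of -3.43, and Lipe, the hormone-sensitive lipase that empties the droplet, one of -1.88. Of 20 genes of fatty acid and triacylglycerol synthesis, 9 were lower and none was higher (median -0.32). Thrsp, a nuclear protein that promotes fat synthesis, showed the largest fall of any gene in the comparison and was at 6.31, 6.60, 6.96 and 6.44 on the day 28 arrays and 10.66, 11.17, 10.83 and 11.52 on the intact arrays (log2 difference -4.47 ± 0.26, adjusted p = 9.6e-08, 22.2-fold lower). Scd, the desaturase that makes monounsaturated fatty acids, was at 7.76, 7.72, 7.86 and 6.92 on the day 28 arrays and 11.03, 11.35, 10.47 and 11.46 on the intact arrays (log2 difference -3.51 ± 0.40, adjusted p = 3.9e-05). Pck1, which supplies glycerol for triacylglycerol, was lower (-3.17), as was Dgat2, which joins the last fatty acid (-2.67). Srebf1, the transcription factor of the pathway, was lower too (-1.49). The list of brown fat heat production, in contrast, had 1 gene lower, Cidea (-3.07), and 1 higher, Dio2 (1.08), the enzyme that activates thyroid hormone, among 11 measured.

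Sterol synthesis, which makes cholesterol, contributed higher genes. Of 17 measured genes, 8 were higher and 1 was lower (median 0.28), the lower call being lost without day 28 replicate 2, 3 or 4 or intact replicate 2, 3 or 4. Cyp51, which removes a methyl group from lanosterol, was at 7.97, 7.81, 7.68 and 8.03 on the day 28 arrays and 7.08, 6.96, 7.06 and 6.95 on the intact arrays (log2 difference 0.86 ± 0.10, adjusted p = 6.8e-05), and Sqle, which oxidises squalene, rose by 0.79 (adjusted p = 0.0013). None of the sterol genes rose by more than 2-fold. Without the day 2 and day 14 arrays in the fit, 5 of them were called, and by the adjusted t-test 2.

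Most genes of the matrix of activated fibroblasts were higher. Fibroblasts that repair a wound secrete collagens, tenascins and thrombospondins that form scar. Of 23 measured genes of this list, 15 were higher and none was lower (median 0.68). Tnn, the matrix glycoprotein tenascin-N, was at 12.08, 11.80, 11.93 and 11.91 on the day 28 arrays and 9.07, 8.64, 8.21 and 8.23 on the intact arrays (log2 difference 3.39 ± 0.26, adjusted p = 1.3e-06, 10.5-fold higher). The 4 day 28 arrays lay close together, well above every intact array. C1qtnf3, a secreted protein of the C1q and TNF family, was at 10.33, 9.63, 10.11 and 10.26 on the day 28 arrays and 7.22, 7.19, 6.71 and 7.06 on the intact arrays (log2 difference 3.04 ± 0.25, adjusted p = 2.3e-06). Lrrc15, a membrane protein of activated fibroblasts, was at 11.74, 11.33, 11.59 and 11.44 on the day 28 arrays and 8.62, 8.75, 8.10 and 8.56 on the intact arrays (log2 difference 3.02 ± 0.21, adjusted p = 5.3e-07). Cthrc1, a secreted protein found in healing tissue, rose by 2.06, and Inhba, the subunit of activin A, by 1.34. Postn, the matricellular protein periostin, rose by 0.90 (adjusted p = 0.0005). Fn1, the fibronectin gene, was at 13.51, 13.47, 13.45 and 13.45 on the day 28 arrays and 13.38, 13.32, 13.28 and 13.33 on the intact arrays and did not pass the test (log2 difference 0.14 ± 0.06, adjusted p = 0.16).

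Of 36 measured genes for soft-tissue collagens and the enzymes that process them, 29 were higher and 1 was lower (median 0.56), where 11% of all genes were higher. The count of higher genes stayed between 26 and 29 when any of the 8 arrays was left out. Col12a1, a collagen that sits on the surface of collagen I fibrils, was at 12.25, 12.17, 12.13 and 12.02 on the day 28 arrays and 10.60, 10.37, 10.18 and 10.00 on the intact arrays (log2 difference 1.85 ± 0.13, adjusted p = 3.9e-07). P4ha3, a subunit of the hydroxylase that stabilises the collagen helix, was at 10.97, 10.55, 10.82 and 11.09 on the day 28 arrays and 9.35, 9.16, 9.04 and 8.36 on the intact arrays (log2 difference 1.88 ± 0.24, adjusted p = 9.4e-05). Col5a3, a fibril-forming collagen of low abundance, rose by 1.50, Col6a3, of the microfibrils around cells, by 1.11, and Adamts14, which trims procollagen, by 1.02. Col1a1, the main chain of collagen I, was near the top of the measured range at 13.24, 13.31, 13.26 and 13.27 on the day 28 arrays and 13.21, 13.12, 13.06 and 13.05 on the intact arrays and did not pass the test (log2 difference 0.16 ± 0.06, adjusted p = 0.12). Of 10 small leucine-rich proteoglycans, 4 were higher, among them Lum, which spaces collagen fibrils (1.00), and Aspn, which binds TGF-beta (0.95). The elastic fibre list was mixed, with 4 of 14 genes higher and 3 lower. Eln, elastin itself, was lower (-0.70 ± 0.11, adjusted p = 0.00051), and Loxl1, which cross-links it, was higher (0.57 ± 0.11, adjusted p = 0.0032).

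Tendon and ligament genes were partly higher. Tnmd, a membrane protein of mature tenocytes, was at 9.57, 8.89, 9.46 and 9.61 on the day 28 arrays and 7.72, 7.79, 7.49 and 7.47 on the intact arrays (log2 difference 1.76 ± 0.30, adjusted p = 0.001). Scx, the transcription factor of tendon progenitors, rose by 0.89 and Thbs4, a thrombospondin of tendon matrix, by 1.07. Of 13 measured tendon genes, 4 were higher and 1 was lower. The lower gene was Myoc, the secreted glycoprotein myocilin, at 6.63, 7.07, 7.44 and 6.65 on the day 28 arrays and 10.11, 10.26, 10.19 and 10.39 on the intact arrays (log2 difference -3.29 ± 0.33, adjusted p = 1.2e-05). In the synovial list, 6 of 14 genes were higher and 2 were lower, or 1 lower without day 28 replicate 1, 2 or 3 or intact replicate 2, 3 or 4. Cemip, which breaks down hyaluronan, rose by 1.48 ± 0.14 (adjusted p = 6.2e-06), and Has2, which makes it, rose by 1.30 ± 0.25 (adjusted p = 0.0029).

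Matrix metalloproteinases cut collagen, elastin and proteoglycan. Of 16 measured genes of the family, 10 were higher, 6 of them by more than 2-fold, and 1 was lower (median 0.72). Mmp3, stromelysin 1, which also activates other proenzymes, was at 10.80, 10.06, 10.09 and 10.31 on the day 28 arrays and 8.64, 8.48, 8.55 and 8.31 on the intact arrays (log2 difference 1.82 ± 0.25, adjusted p = 0.00022). Mmp14, the membrane-bound collagenase, was at 11.75, 11.52, 11.74 and 11.63 on the day 28 arrays and 10.43, 10.21, 10.11 and 10.03 on the intact arrays (log2 difference 1.47 ± 0.10, adjusted p = 5.7e-07). Mmp13, the main collagenase of rodent cartilage and bone, was at 12.36, 12.60, 12.40 and 12.10 on the day 28 arrays and 11.68, 11.25, 11.50 and 10.31 on the intact arrays (log2 difference 1.18 ± 0.23, adjusted p = 0.003). The groups did not overlap in Mmp14 and Mmp13. Mmp2, gelatinase A, rose by 0.89 and Mmp19 by 1.32. The lower member was Mmp8, the collagenase of neutrophils, at 7.54, 10.55, 8.59 and 6.38 on the day 28 arrays and 10.61, 10.81, 10.75 and 10.77 on the intact arrays. Its call (log2 difference -2.47 ± 0.76, adjusted p = 0.043) was lost when any of 7 of the 8 arrays was left out, and its levels followed those of the marrow genes described below.

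The promoters of Mmp3, Mmp12 and Mmp13 are shown because these proteases were higher and their genes carry the same pair of short motifs close to the start. The sequences are RefSeq's for GRCr8, from 250 bases before to 50 bases after the start of the gene, and capitals mark TGACTCA, the AP-1 motif, on either strand (TGAGTCA where it lies on the other) and TATAAA.
Mmp3, chr8:12925031-12925330 on the plus strand: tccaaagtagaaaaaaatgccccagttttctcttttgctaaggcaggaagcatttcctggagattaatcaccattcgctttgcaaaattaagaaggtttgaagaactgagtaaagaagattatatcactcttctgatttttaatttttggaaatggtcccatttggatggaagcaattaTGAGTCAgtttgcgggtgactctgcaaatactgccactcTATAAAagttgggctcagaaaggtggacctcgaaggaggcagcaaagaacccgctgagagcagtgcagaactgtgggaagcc
Mmp12, chr8:12866402-12866701 on the plus strand: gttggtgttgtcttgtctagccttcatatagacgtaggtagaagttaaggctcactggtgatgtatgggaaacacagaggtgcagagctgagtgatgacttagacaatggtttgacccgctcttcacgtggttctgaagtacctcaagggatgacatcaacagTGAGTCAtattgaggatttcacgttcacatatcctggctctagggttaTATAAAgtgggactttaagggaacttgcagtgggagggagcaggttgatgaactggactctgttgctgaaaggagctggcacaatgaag
Mmp13, chr8:12782579-12782878 on the plus strand: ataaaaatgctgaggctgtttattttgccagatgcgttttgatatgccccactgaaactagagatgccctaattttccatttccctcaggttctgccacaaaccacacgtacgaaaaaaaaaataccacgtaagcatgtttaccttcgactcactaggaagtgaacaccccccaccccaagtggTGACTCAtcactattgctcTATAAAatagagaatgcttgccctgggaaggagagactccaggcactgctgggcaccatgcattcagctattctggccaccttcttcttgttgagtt
In Mmp3 the first base of the AP-1 motif lies 71 bases before the start, in Mmp12 87 bases and in Mmp13 66 bases, and TATAAA follows at 32, 39 and 47 bases. TGACTCA was present in 4.63% of the 33469 promoters of this table. Counting a gene when any of its promoters held the motif, it was present in 5.04% of all genes and in 5 of the 10 metalloproteinase genes that the table covers. TATAAA was present in 14.2% of all promoters, in 15.3% of all genes and in 6 of the 10. Of the 5 genes with the AP-1 motif, Mmp10 was not called, and the sixth gene with TATAAA was Mmp8, which was lower. A match describes the letters of this window and no measured binding. Further motifs and gene lists were searched, and the pairs of list and motif shown here and below are a choice from them. The PPAR element, a direct repeat of AGGTCA, was present in 0 of the 13 fat cell genes covered, beside 0.0619% of all genes. CCAAT was present in 3 of these 13, beside 39.6% of all genes, and TGACTCA in 2.

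The aggrecanase Adamts4 was at 8.81, 8.89, 8.74 and 8.99 on the day 28 arrays and 7.42, 7.18, 7.07 and 6.70 on the intact arrays (log2 difference 1.77 ± 0.16, adjusted p = 4.6e-06). In the ADAMTS family, 6 of 17 genes were higher and 3 were lower. Adamts1, another proteoglycan-cutting member, rose by 1.28 and Adamts15 by 1.12, whereas Adamts19 was lower (-0.88). Of 21 protease inhibitors, 7 were lower and 4 were higher. Timp1, an inhibitor of metalloproteinases, was at 12.52, 12.47, 12.29 and 12.22 on the day 28 arrays and 11.38, 11.13, 11.09 and 10.86 on the intact arrays (log2 difference 1.26 ± 0.11, adjusted p = 5.1e-06), and its relative Timp4 was lower (-1.34 ± 0.20, adjusted p = 0.00036). Serpina1, which inhibits neutrophil elastase, was lower (log2 difference -1.54 ± 0.16, adjusted p = 2.2e-05).

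Secreted and matrix proteins of chondrocytes made up the largest falls among cartilage genes. Of 29 measured genes of cartilage matrix and chondrocytes, 10 were lower, 8 of them by more than 2-fold, and 1 was higher (median -0.43). Cytl1, a secreted protein of chondrocytes, was at 7.33, 7.20, 7.65 and 7.13 on the day 28 arrays and 10.49, 10.83, 10.87 and 10.71 on the intact arrays (log2 difference -3.39 ± 0.17, adjusted p = 4.5e-08). Cilp, a protein of the middle cartilage layer that binds TGF-beta, was at 8.15, 8.38, 7.96 and 8.04 on the day 28 arrays and 11.26, 10.86, 11.05 and 10.56 on the intact arrays (log2 difference -2.80 ± 0.18, adjusted p = 2.1e-07). Frzb, a secreted WNT inhibitor of articular cartilage, was at 8.34, 7.92, 8.48 and 7.49 on the day 28 arrays and 10.62, 10.35, 10.37 and 10.43 on the intact arrays (log2 difference -2.38 ± 0.17, adjusted p = 5.7e-07). In these genes every day 28 array lay well below every intact array. Ucma, a small protein of resting cartilage, was lower (log2 difference -1.56 ± 0.28, adjusted p = 0.0016). Chad, which links chondrocytes to collagen, was at 12.16, 12.59, 12.69 and 11.17 on the day 28 arrays and 13.49, 13.47, 13.49 and 13.41 on the intact arrays (log2 difference -1.31 ± 0.41, adjusted p = 0.042), and its call was lost without any of 6 of the 8 arrays. The count of lower members ran from 7 to 10 when single arrays were left out.

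A few genes of hypertrophic cartilage and of bone formation were called higher, where 11% of all genes were higher. Of 15 hypertrophic cartilage genes, 4 were higher and none was lower, and these were Panx3, a channel protein of prehypertrophic chondrocytes (1.29 ± 0.33, adjusted p = 0.015), Mmp13, Ibsp, a bone matrix sialoprotein (0.88 ± 0.28, adjusted p = 0.045), and Vegfa, which draws in vessels (0.44 ± 0.09, adjusted p = 0.0054). The call for Ibsp was lost when any of 6 of the 8 arrays was left out. The count of higher hypertrophic cartilage genes ran from 3 to 5 without single arrays, and the adjusted t-test called 1. Of 20 osteoblast and osteocyte genes, 3 were higher, Cthrc1, Ibsp and Enpp1, which makes pyrophosphate (0.88 ± 0.12, adjusted p = 0.00022). That count is near the share over all genes, and nothing is read from it. It ran from 2 to 4 without single arrays, and the adjusted t-test called 2. Runx2, the transcription factor of bone formation, did not pass (log2 difference 0.37 ± 0.17, adjusted p = 0.17).

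Osteoclasts dissolve bone by pumping acid and secreting cathepsin K, and they form under the signal of RANKL, which osteoprotegerin captures. Of 12 measured genes of the osteoclast list, 8 were higher and 2 were lower (median 0.58). The gene of RANKL, Tnfsf11, was at 8.41, 8.72, 8.65 and 8.06 on the day 28 arrays and 7.63, 7.30, 7.27 and 7.29 on the intact arrays (log2 difference 1.08 ± 0.13, adjusted p = 7.4e-05), and that of osteoprotegerin, Tnfrsf11b, was lower (-0.90 ± 0.09, adjusted p = 1.4e-05). Atp6v0d2, a subunit of the acid pump, was at 8.64, 9.40, 8.99 and 8.46 on the day 28 arrays and 7.10, 7.40, 7.31 and 6.20 on the intact arrays (log2 difference 1.87 ± 0.29, adjusted p = 0.0005), and Ctsk, cathepsin K, was at 12.45, 12.88, 12.60 and 12.44 on the day 28 arrays and 11.96, 11.76, 11.65 and 11.32 on the intact arrays (log2 difference 0.92 ± 0.15, adjusted p = 0.00068). In both genes day 28 replicate 2 had the highest value. Siglec15, a receptor of the osteoclast surface, and Tm4sf19, a membrane protein of osteoclasts, chosen after their values were seen, rose by 1.09 and 1.40. Car2, a carbonic anhydrase of osteoclasts that red blood cells also carry, was the lower gene beside Tnfrsf11b, at 8.58, 9.90, 8.82 and 8.35 on the day 28 arrays and 10.98, 10.87, 10.46 and 10.77 on the intact arrays (log2 difference -1.86 ± 0.35, adjusted p = 0.0025). The mean over the osteoclast list was 9.16, 9.62, 9.27 and 9.01 on the day 28 arrays against 8.57 to 8.96 on the intact arrays.

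Many genes of marrow cells were lower, and they varied strongly between the day 28 arrays. Of 19 measured erythroid genes, 17 were lower (median -1.88). Hemgn, a nuclear protein of red cell precursors, was at 6.45, 9.67, 7.80 and 6.54 on the day 28 arrays and 10.92, 10.86, 10.56 and 10.79 on the intact arrays (log2 difference -3.17 ± 0.76, adjusted p = 0.011; adjusted p = 0.153 by the methods' t-test), and Slc4a1, the anion exchanger band 3, was at 7.58, 10.28, 8.31 and 7.39 on the day 28 arrays and 11.62, 11.54, 11.03 and 11.51 on the intact arrays (log2 difference -3.04 ± 0.73, adjusted p = 0.011). On the day 28 arrays both were highest in replicate 2, followed by replicate 3, while the intact arrays lay close to each other. Hba-a1, an alpha globin, was lower (log2 difference -1.64 ± 0.43, adjusted p = 0.018), a call that was lost without day 28 replicate 1 or replicate 3. The mean over the erythroid list was 6.82, 8.2, 7.23 and 6.74 on day 28 replicates 1 to 4 and 8.74 to 9.07 on the intact arrays. When any array was left out, 12 to 17 members were called lower, while the methods' t-test with Benjamini-Hochberg adjustment called 1.

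**Figure D3:**
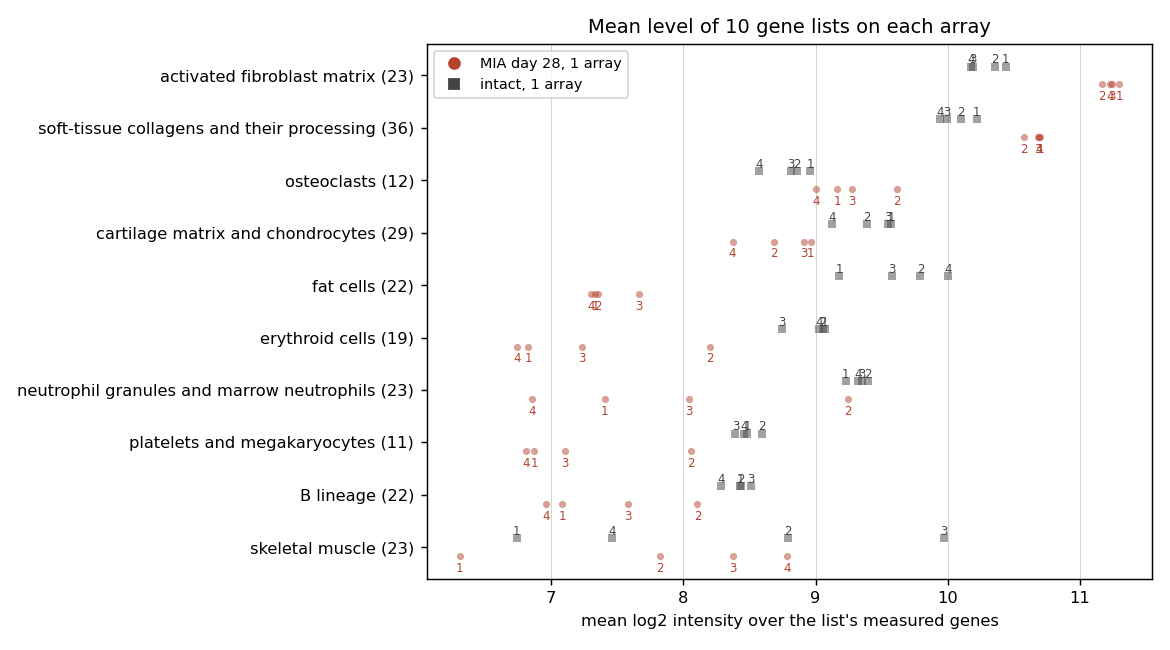
Mean log2 intensity over the measured genes of 10 lists (number of genes in brackets, horizontal axis) on each of the 8 arrays; circles are day 28, squares are intact and digits are replicate numbers. Day 28 replicate 2 lies nearest to the intact arrays in the erythroid, neutrophil, platelet and B lineage lists, while the muscle list spreads over both groups and the fat cell and fibroblast lists separate them.

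The neutrophil list followed the same order of arrays, with a mean of 7.41, 9.25, 8.04 and 6.86 on day 28 replicates 1 to 4 against 9.23 to 9.40 on the intact arrays. Of 23 genes, 12 were lower and 1 was higher (median -1.71), but these calls rested on single arrays. Without day 28 replicate 2, 19 members were lower. Without day 28 replicate 1 or replicate 4 none was lower, without day 28 replicate 3 or intact replicate 1, 5 were lower, and without any other intact array 1 was lower. With the day 2 and day 14 arrays left out of the fit, 3 were lower, and the adjusted t-test called none (20 were lower at an unadjusted p under 0.05 in limma). Mpo, the peroxidase of neutrophil granules, was at 7.88, 10.68, 9.29 and 7.19 on the day 28 arrays and 10.79, 11.14, 11.10 and 11.05 on the intact arrays (log2 difference -2.26 ± 0.63, adjusted p = 0.024), and its call was lost without any of 5 of the 8 arrays. Platelet and megakaryocyte genes were lower in 7 of 11 (median -1.14), among them Ppbp, a platelet chemokine (-2.71 ± 0.72, adjusted p = 0.02), whose call was lost without day 28 replicate 1, 3 or 4. The count of lower platelet genes was 1 without day 28 replicate 1 or replicate 4, 2 without replicate 3, 9 without replicate 2, and 4 without intact replicate 2 or replicate 4, and the adjusted t-test called none. At an unadjusted p under 0.05 in limma, 9 were lower. B lineage genes were lower in 15 of 22 (median -1.01), with 11 to 17 when an array was left out and 1 by the adjusted t-test. Of 13 genes of haematopoietic progenitors and proliferating marrow, 4 were lower and 1 was higher. Cd79a, the signalling chain of the B cell receptor, was at 7.31, 8.62, 7.63 and 6.62 on the day 28 arrays and 9.25, 9.22, 9.18 and 8.93 on the intact arrays (log2 difference -1.60 ± 0.38, adjusted p = 0.011). The share of marrow in each sample was not measured, and its part in these results was not tested.

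MicroRNA genes are also represented on the array, by probe sets whose RNA form, precursor or host transcript, is not given in the sources used here. They were examined after their values had been seen. Of 352 measured microRNA genes in the RefSeq table, 6 were higher (1.7%) and 21 were lower (5.97%), against 11% and 9.57% of all genes. More than 2-fold differences were found for 8. The mature sequences are shown for 6 of them because the seed, bases 2 to 8 in capitals, decides which mRNAs a microRNA pairs with. The remaining pair, Mir126a and Mir126b, lies on opposite strands of the same stretch. The sequences are RefSeq's for GRCr8, both arms of each precursor. The probe sets do not tell the arms apart, and no arm was measured on its own. The first 3 pairs come from Mir31, Mir199a2 and Mir21, whose probe sets were higher, and the last 3 from Mir144, Mir223 and Mir19b2, whose probe sets were lower.
rno-miR-31a-5p: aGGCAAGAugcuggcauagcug
rno-miR-31a-3p: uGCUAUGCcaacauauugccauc
rno-miR-199a-5p: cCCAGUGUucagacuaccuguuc
rno-miR-199a-3p: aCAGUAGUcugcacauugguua
rno-miR-21-5p: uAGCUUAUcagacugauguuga
rno-miR-21-3p: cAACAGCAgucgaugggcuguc
rno-miR-144-5p: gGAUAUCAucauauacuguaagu
rno-miR-144-3p: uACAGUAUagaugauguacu
rno-miR-223-5p: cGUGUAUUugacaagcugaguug
rno-miR-223-3p: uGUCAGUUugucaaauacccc
rno-miR-19b-2-5p: aGUUUUGCagauuugcaguucag
rno-miR-19b-3p: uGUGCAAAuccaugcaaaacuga
No seed was shared between these sequences. Mir31 was at 6.64, 6.22, 6.04 and 6.86 on the day 28 arrays and 5.04, 4.78, 5.45 and 4.75 on the intact arrays (log2 difference 1.43 ± 0.19, adjusted p = 0.00016). Its intact values lie near or below the dim level of 5, so that the size of its difference is uncertain. Another microRNA gene, Mir3554, lies on the opposite strand of its locus. Mir199a2, whose microRNA is abundant in fibroblasts and other mesenchymal cells, was at 7.56, 7.55, 7.94 and 7.89 on the day 28 arrays and 6.77, 6.44, 6.44 and 6.46 on the intact arrays (log2 difference 1.21 ± 0.14, adjusted p = 5.3e-05), and Mir21 was at 8.38, 8.29, 8.31 and 8.86 on the day 28 arrays and 7.37, 7.44, 7.32 and 7.33 on the intact arrays (log2 difference 1.09 ± 0.14, adjusted p = 8.1e-05). The groups did not overlap in any of these. Mir144, an erythroid microRNA, was lower (adjusted p = 2.3e-05), at 2.81, 3.40, 3.03 and 2.94 on the day 28 arrays and 5.08, 5.64, 4.82 and 4.81 on the intact arrays. Mir19b2 was lower (adjusted p = 0.0015), at 3.03, 3.30, 3.11 and 3.15 on the day 28 arrays and 4.95, 4.93, 5.06 and 3.72 on the intact arrays, and Mir451a, the neighbour of Mir144, was lower (adjusted p = 1.7e-05), at 3.36, 3.52, 3.21 and 3.50 on the day 28 arrays and 4.24, 4.40, 4.45 and 4.33 on the intact arrays. For these 3 genes every day 28 value lies below a level of 5, taken as dim, and most or all intact values lie near or below it, so that the sizes of the differences are uncertain. Mir223, a myeloid microRNA, was at 5.75, 7.99, 6.67 and 6.07 on the day 28 arrays and 8.48, 8.65, 8.40 and 8.40 on the intact arrays (log2 difference -1.86 ± 0.43, adjusted p = 0.0087), with day 28 replicate 2 highest, as for the neutrophil genes. Mir126a (log2 difference -1.65 ± 0.21) and Mir126b (-1.12 ± 0.24) were lower. Mir140, the microRNA of cartilage, was at 7.57, 8.12, 7.42 and 7.48 on the day 28 arrays and 8.03, 8.24, 8.72 and 7.84 on the intact arrays (log2 difference -0.56 ± 0.18, adjusted p = 0.044), its groups overlapped, and the call was lost without any of 5 of the 8 arrays.

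The Hemgn promoter is shown as an example from the erythroid list, since GATA factors direct red cell genes. It is 1 of 2 promoters of the gene in the table and was picked because it holds the motif, which the other lacks. Capitals mark AGATAA, which starts 53 bases before the start of the gene.
Hemgn, chr5:65485772-65486071 on the minus strand: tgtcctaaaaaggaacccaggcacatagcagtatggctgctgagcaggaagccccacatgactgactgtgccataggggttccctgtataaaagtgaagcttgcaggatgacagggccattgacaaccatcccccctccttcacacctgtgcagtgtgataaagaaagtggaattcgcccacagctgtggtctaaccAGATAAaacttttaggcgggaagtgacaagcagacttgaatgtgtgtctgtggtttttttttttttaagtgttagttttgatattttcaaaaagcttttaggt
AGATAA, searched on both strands, was present in 11.6% of all promoters, in 12.2% of all genes and in 5 of the 16 erythroid genes that the table covers.

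Macrophage genes moved in both directions, 7 of 27 higher and 8 lower. Cd163, the receptor for haemoglobin and haptoglobin, was lower, at 6.82, 6.88, 6.81 and 6.55 on the day 28 arrays and 8.84, 9.33, 9.14 and 9.59 on the intact arrays (log2 difference -2.46 ± 0.28, adjusted p = 4.1e-05), and Vsig4, a complement receptor, was lower, at 7.79, 8.00, 7.52 and 6.91 on the day 28 arrays and 9.72, 9.97, 9.50 and 10.05 on the intact arrays (log2 difference -2.26 ± 0.24, adjusted p = 2e-05). Higher were Cx3cr1, the receptor for fractalkine, at 10.36, 9.97, 9.96 and 9.87 on the day 28 arrays and 8.90, 8.86, 8.75 and 8.83 on the intact arrays (log2 difference 1.20 ± 0.14, adjusted p = 4.8e-05), and Gpnmb, a glycoprotein of lipid-laden macrophages and osteoclasts (1.15 ± 0.15, adjusted p = 0.00013). Of the T and NK cell list, 4 of 28 genes were lower, 1 when day 28 replicate 1 or replicate 4 was left out and 2 without intact replicate 1, 2 or 3. The gene called higher lost its call without day 28 replicate 2 or intact replicate 3. Of the MHC class II and dendritic cell list, 3 of 21 were higher, and 1 without day 28 replicate 1. Over all genes, 11% were higher and 9.57% lower. Nothing is read from the counts of this list or of the T and NK cell list. Mast cell genes were lower in 4 of 12, among them Hpgds, the prostaglandin D synthase (-1.53 ± 0.21, adjusted p = 0.0002). The count was 3 or 4 without single arrays, and the call for the member Ms4a2 was lost without any of 7 of the 8 arrays. The list mean was 6.476, 7.065, 6.732 and 6.308 on day 28 replicates 1 to 4, the order of the marrow lists. On the intact arrays it was 6.862 to 7.114.

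Of 41 chemokines and receptors, 7 were higher and 11 were lower (median 0.014). Apart from Ccl9, the monocyte chemokine Ccl7 was higher, at 8.75, 8.26, 8.99 and 8.92 on the day 28 arrays and 7.17, 7.47, 6.61 and 7.41 on the intact arrays (log2 difference 1.56 ± 0.25, adjusted p = 0.00072). Ccl11, which attracts eosinophils, was lower (-1.78 ± 0.21, adjusted p = 5.5e-05), as was Cxcl9, an interferon-induced attractant of T cells (-1.63 ± 0.18, adjusted p = 3e-05). Of 30 inflammatory cytokines and receptors, 9 were higher and 5 were lower, or 3 lower without day 28 replicate 4, intact replicate 2 or intact replicate 4. Il6 was at 8.32, 6.44, 7.39 and 6.99 on the day 28 arrays and 5.23, 5.96, 5.83 and 5.25 on the intact arrays (log2 difference 1.72 ± 0.38, adjusted p = 0.0065), with no overlap. Il11, a cytokine of the same family, rose by 1.17 ± 0.13 (adjusted p = 3.9e-05), and Il1rn, the natural antagonist of interleukin 1, rose by 1.15 ± 0.25 (adjusted p = 0.0055). Il33, an alarm cytokine of stromal cells, was lower (-1.86 ± 0.18, adjusted p = 1.2e-05). Il1b (log2 difference 0.04 ± 0.10, adjusted p = 0.88) and Tnf (0.03 ± 0.14, adjusted p = 0.94) did not pass the test, and their groups overlapped. Of 17 genes of Toll-like receptors and adaptors, 5 were higher, 3 without day 28 replicate 1, and 1 was lower. Lbp, which presents lipopolysaccharide to the receptor complex, rose by 0.93, and Ly96, a part of that complex, rose by 0.81.

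Most interferon response genes were lower, 14 of 21, and none was higher (median -0.66), while the adjusted t-test called 3 lower. At an unadjusted p under 0.05, 19 were lower and 1 was higher. Mx1, an antiviral GTPase, was at 5.99, 5.99, 6.30 and 6.40 on the day 28 arrays and 7.22, 8.30, 7.20 and 8.28 on the intact arrays (log2 difference -1.58 ± 0.36, adjusted p = 0.0086), and Irf7, the factor that drives interferon genes, was lower (log2 difference -1.08 ± 0.28, adjusted p = 0.018), a call that was lost without day 28 replicate 2, intact replicate 2 or intact replicate 4. Rsad2, another antiviral enzyme, was at 5.84, 7.98, 6.56 and 5.73 on the day 28 arrays and 9.44, 9.42, 8.83 and 9.66 on the intact arrays (log2 difference -2.81 ± 0.58, adjusted p = 0.004), in the same order of day 28 arrays as the marrow genes. Mx1 and the list as a whole did not show that order. The mean over the interferon list was 6.94, 6.96, 7.12 and 7.18 on day 28 replicates 1 to 4. Of 24 complement genes, 8 were lower, 5 without intact replicate 4, and 2 were higher. Cfd, factor D, which fat cells secrete, was at 7.01, 7.33, 7.64 and 6.94 on the day 28 arrays and 9.59, 10.00, 9.47 and 10.13 on the intact arrays (log2 difference -2.57 ± 0.16, adjusted p = 2.1e-07), and C3 was lower (log2 difference -1.19 ± 0.28, adjusted p = 0.0099). Higher were Masp1 (1.18) and C1s (0.82), proteases that start the lectin and classical pathways.

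Of 18 endothelial genes, 7 were lower and none was higher (median -0.31). Vwf, the clotting glycoprotein of endothelium, was at 9.06, 8.74, 8.60 and 8.77 on the day 28 arrays and 9.46, 9.55, 9.53 and 9.59 on the intact arrays (log2 difference -0.74 ± 0.09, adjusted p = 0.00011), and Emcn, a mucin of capillaries and veins, was lower (log2 difference -0.64 ± 0.08, adjusted p = 0.00012). The pericyte and smooth muscle list was mixed, with 3 of 14 lower and 2 higher. Myh11, smooth muscle myosin, was lower (-0.88 ± 0.10, adjusted p = 5.3e-05), and Pdgfrb, the growth factor receptor of pericytes and fibroblasts, was higher (0.69 ± 0.07, adjusted p = 1.3e-05). In the Schwann cell and nerve list, 7 of 18 genes were lower and 4 were higher, or 2 higher without day 28 replicate 1, day 28 replicate 4 or intact replicate 3. Mbp, the myelin basic protein, was lower (-0.89 ± 0.12, adjusted p = 0.00016), and Uchl1, a ubiquitin hydrolase of neurons, was higher (1.10 ± 0.13, adjusted p = 3.9e-05). Of 24 neurotrophins and pain mediators, only Ntf3, neurotrophin 3, was called, and it was lower (-0.93 ± 0.17, adjusted p = 0.0017), while 3 genes were called lower after cyclic loess scaling or without intact replicate 1, and 2 without day 28 replicate 2 or intact replicate 2. In axon guidance, 8 of 28 genes were lower and 2 were higher, or 1 higher without day 28 replicate 1, 3 or 4 or intact replicate 2 or 4. Sema3e, a semaphorin that repels vessels and axons, was lower (-1.63 ± 0.15, adjusted p = 7.6e-06), as was Ntn1, netrin 1 (-1.37 ± 0.14, adjusted p = 1.6e-05). Of 14 epithelial genes, 1 was lower, beside 9.57% of all genes. That call was lost without day 28 replicate 3 or intact replicate 2.

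Glucose enters cells through transporters and is split by glycolysis, a route that low oxygen induces. Of 25 genes of glycolysis and the response to low oxygen, 11 were higher and 1 was lower (median 0.40). Hk2, the hexokinase that traps glucose in the cell, was at 9.08, 8.93, 8.94 and 8.96 on the day 28 arrays and 7.97, 8.13, 8.00 and 7.93 on the intact arrays (log2 difference 0.97 ± 0.07, adjusted p = 5.9e-07). Slc2a1, the glucose transporter GLUT1, rose by 1.04 ± 0.14 (adjusted p = 0.00015), Slc16a3, which exports lactate, by 1.08, and Car9, a carbonic anhydrase induced by low oxygen, by 1.10. The lower gene was Pfkfb3, which makes an activator of phosphofructokinase (-0.75 ± 0.12, adjusted p = 0.00045). Mitochondrial respiration showed 2 of 28 genes higher, or 1 without day 28 replicate 1 or 2 or intact replicate 1, 2 or 4, and 1 lower. Over all genes, 11% were higher and 9.57% lower. Of 36 genes of DNA replication and mitosis, 8 were lower and none was higher (4 lower without day 28 replicate 3 or intact replicate 2, 5 without day 28 replicate 1, day 28 replicate 4 or intact replicate 3, 11 without day 28 replicate 2, and none lower by the adjusted t-test), among these Cdc6, which loads the replicative helicase (-1.06 ± 0.21, adjusted p = 0.0032), and Mki67, a marker of dividing cells (-0.79 ± 0.19, adjusted p = 0.011). On the day 28 arrays both were highest in replicate 2, as the marrow genes were. Ribosomal protein genes were higher in 4 of 21, and in 2 after cyclic loess scaling or when any array other than intact replicate 1 was left out. Without intact replicate 1 or after median centring, 6 were higher.

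Lysosome genes were higher in 7 of 21 and lower in none, among them Ctsd, cathepsin D (0.60 ± 0.10, adjusted p = 0.00087), and Glb1, a lysosomal galactosidase (0.71 ± 0.10, adjusted p = 0.00026). Of 23 genes of the unfolded protein response, 7 were higher and none was lower, all under 2-fold, with 3 higher after cyclic loess scaling and 11 after centring each array on its median. Manf, a secreted stress factor of the endoplasmic reticulum, rose by 0.46 ± 0.09 (adjusted p = 0.0019). Of 23 genes of oxidative and metal stress, 10 were higher and 4 were lower. Hmox1, which breaks down haem (0.90 ± 0.18, adjusted p = 0.0029), and Sod2, the mitochondrial superoxide dismutase (0.89 ± 0.10, adjusted p = 4.9e-05), were higher, and Cat, catalase (-0.73 ± 0.08, adjusted p = 2.2e-05), and Sod3, the secreted dismutase (-0.73 ± 0.09, adjusted p = 6.8e-05), were lower.

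Genes of the circadian clock differed in opposite directions, 7 of 17 higher and 5 lower. In the clock, BMAL1 with CLOCK or NPAS2 binds E-boxes and drives the PER, CRY, REV-ERB and PAR-bZIP genes, some of which in turn repress BMAL1. Of the activators, Bmal1 was at 9.83, 9.79, 9.23 and 9.61 on the day 28 arrays and 8.32, 8.08, 7.93 and 7.66 on the intact arrays (log2 difference 1.62 ± 0.14, adjusted p = 3.5e-06), Npas2 was at 11.35, 11.22, 11.07 and 11.39 on the day 28 arrays and 9.99, 9.66, 9.40 and 9.38 on the intact arrays (log2 difference 1.65 ± 0.15, adjusted p = 6.5e-06), and Clock rose by 0.34 ± 0.06 (adjusted p = 0.0019). Nfil3, which acts against DBP at shared sites, rose by 1.39 ± 0.14 (adjusted p = 1.2e-05). Of the driven genes, Dbp was at 9.43, 9.39, 9.98 and 10.11 on the day 28 arrays and 11.26, 11.52, 11.62 and 11.55 on the intact arrays (log2 difference -1.76 ± 0.15, adjusted p = 4.1e-06), and Nr1d1, which encodes REV-ERB alpha, was at 10.51, 9.94, 10.99 and 11.06 on the day 28 arrays and 11.97, 12.15, 12.25 and 12.11 on the intact arrays (log2 difference -1.50 ± 0.19, adjusted p = 9.6e-05). The log2 differences were -1.55 ± 0.14 for Per3, -0.92 ± 0.14 for Tef and -0.87 ± 0.12 for Ciart. None of these genes overlapped between the groups. Per1 (-0.22 ± 0.15, adjusted p = 0.39) and Per2 (-0.29 ± 0.13, adjusted p = 0.17) did not pass, and Cry1 was higher (0.60 ± 0.15, adjusted p = 0.015), a call that was lost without intact replicate 4. The hour at which tissue was taken is not given in the sources used here, and any difference in it between the groups cannot be told apart from the days.

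**Figure D4:**
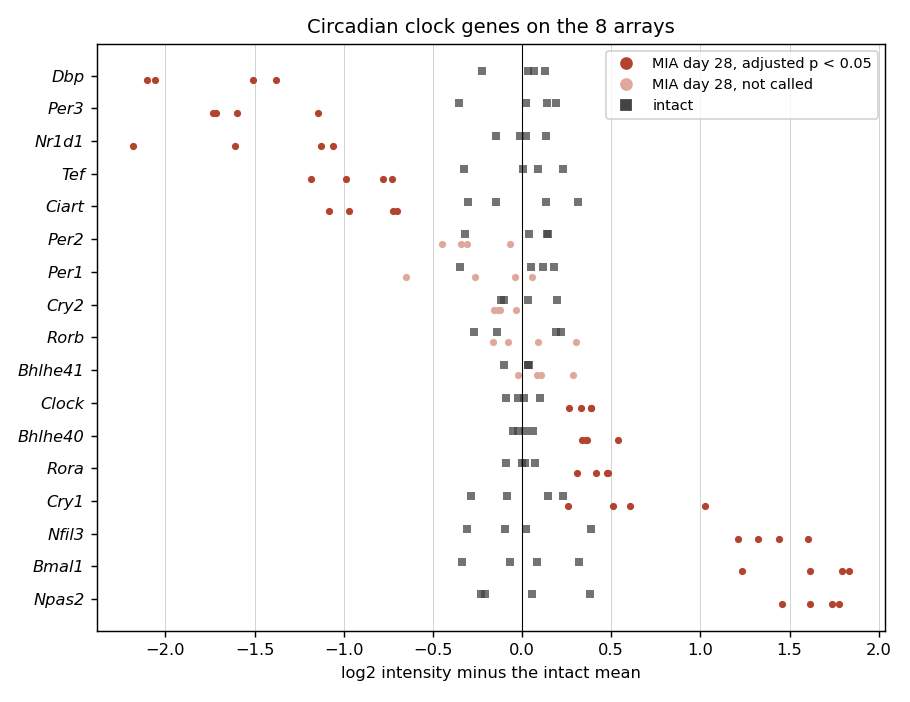
Log2 intensity minus the intact mean (horizontal axis) of 17 circadian clock genes on the 4 day 28 arrays (circles, dark where the adjusted p was under 0.05) and the 4 intact arrays (squares). The day 28 arrays lie left of the intact arrays for Dbp, Per3, Nr1d1, Tef and Ciart, and right of them for Nfil3, Bmal1 and Npas2.

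The Nr1d1 promoter is shown for its E-box, the element through which the clock activators act. It is 1 of 2 promoters of the gene in the table and was picked because it holds the motif, which the other lacks. Capitals mark CACGTG, which reads the same on both strands and starts 191 bases before the start of the gene.
Nr1d1, chr10:84229405-84229704 on the minus strand: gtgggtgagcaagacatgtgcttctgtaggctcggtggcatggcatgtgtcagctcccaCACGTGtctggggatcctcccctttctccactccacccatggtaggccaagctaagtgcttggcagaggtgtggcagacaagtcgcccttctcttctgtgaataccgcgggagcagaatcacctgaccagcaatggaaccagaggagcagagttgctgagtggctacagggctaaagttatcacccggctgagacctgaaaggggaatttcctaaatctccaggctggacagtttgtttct
CACGTG was present in 6.42% of all promoters, in 7.08% of all genes and in 5 of the 16 clock genes that the table covers, which are Bhlhe40, Bhlhe41, Ciart, Nr1d1 and Tef. In the windows of the other clock genes, Dbp and Per3 included, these letters were not found.

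WNT, TGF-beta and BMP signals shape cartilage and bone, and secreted antagonists limit them. Of 39 WNT pathway genes, 10 were higher and 4 were lower. Besides Frzb, the WNT inhibitor Wif1 was lower, at 8.36, 9.08, 8.99 and 8.23 on the day 28 arrays and 11.02, 10.73, 10.77 and 9.95 on the intact arrays (log2 difference -1.95 ± 0.29, adjusted p = 0.00032), as was Rspo3, which strengthens WNT signals (-1.24 ± 0.14, adjusted p = 3.3e-05), while the receptors Fzd1 (1.11) and Fzd2 (1.09) and the inhibitor Sfrp1 (1.03) were higher. Of 34 genes of the TGF-beta and BMP family, 9 were lower and 7 were higher. Grem1, an antagonist of BMPs, was at 6.72, 7.20, 7.16 and 6.80 on the day 28 arrays and 9.44, 9.52, 9.76 and 9.21 on the intact arrays (log2 difference -2.51 ± 0.14, adjusted p = 7.7e-08), and Chrdl1, another BMP antagonist, was lower (-1.80 ± 0.18, adjusted p = 1.2e-05). Bmp6, a ligand, was lower (log2 difference -1.14 ± 0.14, adjusted p = 7.5e-05), as was Fst, which captures activin (-1.14 ± 0.16, adjusted p = 0.00023). Of 26 IGF and FGF genes, 6 were higher and 7 were lower, with Igfbp3, a carrier of IGF, higher (0.93 ± 0.10, adjusted p = 1.6e-05) and Fgf2 lower (-0.91 ± 0.11, adjusted p = 4.8e-05). Integrins and laminins were lower in 9 of 27, in 5 without day 28 replicate 1 or intact replicate 2, and higher in 4. Itga5, the fibronectin receptor chain (0.76), and Itga11, a collagen receptor of fibroblasts (0.73), were higher, and Itga1, another collagen receptor, was lower (-0.74).

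Of 25 genes of prostaglandins and leukotrienes, 7 were higher and 6 were lower. Ptgs2, the inducible cyclooxygenase, was at 9.58, 9.16, 8.79 and 9.01 on the day 28 arrays and 7.75, 7.88, 7.94 and 7.40 on the intact arrays (log2 difference 1.39 ± 0.15, adjusted p = 3e-05). Hpgd, which inactivates prostaglandins, was higher (1.41 ± 0.23, adjusted p = 0.00067), and the prostaglandin E receptor gene Ptger3 was lower, at 5.91, 6.52, 5.78 and 5.88 on the day 28 arrays and 8.46, 9.09, 9.10 and 9.63 on the intact arrays (log2 difference -3.05 ± 0.26, adjusted p = 2.7e-06). Of 11 genes of the renin-angiotensin system, 3 were lower and 3 were higher, or 1 higher after cyclic loess scaling. Agt, the precursor of angiotensin, was at 7.06, 7.16, 7.30 and 6.94 on the day 28 arrays and 9.01, 8.94, 8.94 and 9.21 on the intact arrays (log2 difference -1.91 ± 0.17, adjusted p = 5.5e-06), and Ace, which makes angiotensin II, was lower (-1.18 ± 0.11, adjusted p = 6.3e-06). Agtr2, the angiotensin receptor type 2, was higher at 7.50, 6.58, 6.47 and 7.58 on the day 28 arrays and 5.30, 5.43, 5.87 and 5.81 on the intact arrays (log2 difference 1.43 ± 0.30, adjusted p = 0.0051). The groups did not overlap in any of these genes of the renin-angiotensin system.

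**Figure D5:**
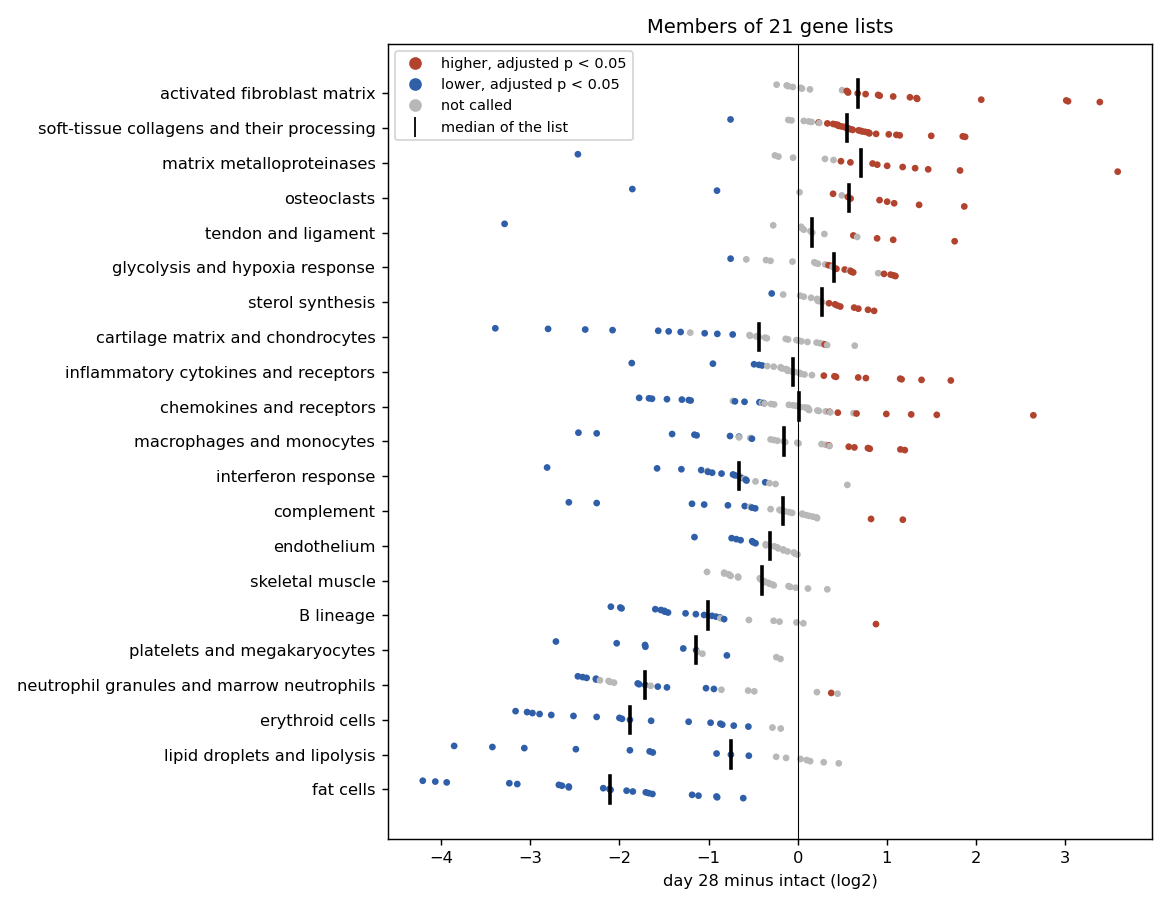
Log2 difference (day 28 minus intact, horizontal axis) of every measured gene in 21 of the 53 lists, each point 1 gene, coloured where the adjusted p was under 0.05, with a bar at the median of the list. All 22 fat cell genes lie on the lower side, 15 of 23 fibroblast matrix genes are higher, and none of the 23 muscle genes is coloured.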

How the data were processed

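Deposited values were log2 intensities per probe set of the Affymetrix Rat Gene 2.0 ST array, which the authors made by background correction, quantile normalisation and summarisation (RMA in oligo 1.36.1 per the labels). A probe annotation of the array named the genes, with 18511 probe sets carrying 1 symbol, 575 several and 17599 none. The genome build of the probe sets is not given in the sources used here, so no probe coordinates are printed.

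All 36685 probe sets of the 16 arrays were fitted in limma 3.58.1 (R 4.3.3) with 1 mean per group and eBayes, and p-values of the day 28 minus intact contrast were adjusted over all probe sets by Benjamini and Hochberg, with a threshold of 0.05. Nothing was filtered out. Values after ± are standard errors. The number of arrays, 4 per group, limits the precision. The fit was tried on simulated data with 1 spread per probe set for all groups and 200 of the 36685 probe sets changed. It called 72.9% of true log2 differences of 1 and 31.3% of those of 0.5. Of its calls, 6.76% were false. In the data 14.2% of probe sets were called, so that these rates need not hold there. The simulated setting also does not cover the marrow genes, whose day 28 arrays spread more widely than the intact arrays. Promoter and microRNA sequences came from RefSeq tables for GRCr8, in which 18394 of the 18511 annotated probe sets found their gene.

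Named genes were the 15 largest per direction among called genes with a fold over 2 and no overlap, up to 6 called members per list with the largest difference, and Col2a1, Acan, Sox9 and Prg4. Outside these rules, uncalled genes, among them Col1a1, Fn1, Runx2, Il1b, Tnf, Per1 and Per2, were named to complete their families. The microRNA genes, Pparg, Lep, Postn, Mmp2, Chad, Tnfrsf11b, Hba-a1, Clock, Tef, Ciart, Cry1 and the genes in the opening of the other observations were chosen after their values were seen. Members and the 53 gene lists were chosen with earlier results of these data known. Alternatives were cyclic loess, median centring, a fit to 8 arrays, a filter on dim probe sets, other variance settings and array weights. Further ones were a replicate block, the methods' t-test and leaving out each array. The t-test was run in its Welch form, with a separate spread for each group.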

Additional observations from a re-analysis of the deposited data

Results flagged for a closer look

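Of 174 groups of 4 arrays examined over named genes and list means, 7 held an array far from the others, where chance alone gives about 1 in 20. Day 28 replicate 4 had the lowest Scd (6.92, others 7.72 to 7.86), and day 28 replicate 2 the lowest Fabp4 (7.26, others 7.67 to 7.72). Day 28 replicate 2 also had the lowest mean over soft-tissue collagens (10.6, others 10.7) and over elastic fibre genes (9.74, others 10.1), and day 28 replicate 3 the highest mean over fat cell genes (7.66, others 7.30 to 7.35). Intact replicate 3 had the lowest mean over erythroid genes (8.74, others 9.03 to 9.07) and over chemokines (7.40, others 7.51 to 7.53).

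Day 28 differed from day 14 for 30 of 321 named genes (limma, adjusted p under 0.05), beside 0.771% of all genes. The named genes were chosen on the same day 28 arrays, so that a higher share follows from the choice and nothing is read from it. Both days are compared with the same intact arrays. Below the day 14 level were fat cell and lipid genes, with log2 differences between the days of -2.28 for Thrsp, -2.35 for Adipoq, -1.54 for Aqp7, -1.66 for Cidec, -1.40 for Plin1, -2.10 for Gpd1, -1.17 for Pck1, -1.76 for Fabp4, -1.41 for Retn, -1.16 for Cidea, -1.88 for Cfd, -1.63 for Car3 and -0.90 for Lpl. Also below day 14 were Sult1a1 (-1.16), Myoc (-1.62), Tmem45b (-0.86), Eln (-0.67), Klrk1 (-0.997), Cxcl9 (-1.24) and Il33 (-1.12). Above day 14 were Scrg1 by 1.97, a gene of cartilage matrix and chondrocytes, Car9 by 1.39, Vegfa by 0.58, Slc2a1 by 0.74 and Hk2 by 0.37 of the low oxygen and glycolysis list, Cemip by 0.99, Tnfrsf11b by 0.82, Nr4a2 by 0.81, Nr4a3 by 1.12 and Per1 by 1.03. Against intact, Scrg1 was still lower at day 28 (-1.45, and -3.41 at day 14), as was Tnfrsf11b (-0.90, and -1.73 at day 14). Between day 28 and day 2, 204 of the 321 genes differed, beside 31.7% of all genes, with the same restriction.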

How the results depend on the processing

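The number of calls depended on how the spread was estimated. With only the 8 arrays of the comparison in the fit, 1838 probe sets were higher. The methods' t-test with Benjamini-Hochberg adjustment called 1210 probe sets higher and 841 lower (142 and 293 over 2-fold, 992 and 686 genes), and at the methods' own unadjusted threshold with a fold over 2, 38 were higher and 80 lower. The t-test was run here in its Welch form, which estimates each gene's spread separately within each group, from the arrays of that group alone. The paper names a t-test without giving its form. How much of the lower counts came from the separate spreads was not tested. The Welch test called 16 of 22 fat cell genes lower. It called 19 of 36 soft-tissue collagen genes and 12 of 23 fibroblast matrix genes higher. Also higher were 5 of 12 osteoclast, 5 of 25 glycolysis and 2 of 21 lysosome genes. Leaving out single arrays gave 2047 to 2622 probe sets higher and 1743 to 2283 lower (187 to 257 and 446 to 634 over 2-fold), and 1513 to 1890 genes higher and 1300 to 1671 lower. Higher genes made up 53.4% of calls, 44.1% after cyclic loess and 62.8% after median centring. Without day 28 replicate 2 and intact replicate 3, chosen after seeing the data for their marrow and muscle signal, 1516 genes were higher and 1382 lower.

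With the replicate number as a block, 2511 probe sets were higher and 2271 lower, with 1778 and 1664 genes. Same-numbered arrays of the 2 groups correlated at -0.36 to 0.0934 in their deviations and came from different rats, so that they share only a number.

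Of 310 called named genes, 144 lost the call under the t-test and 51 without some array, and none changed sign. Among uncalled genes, the difference changed sign for Col1a1 (-0.0043) and Fn1 (-0.026) after cyclic loess and for Prg4 (0.0050) after median centring. Without single arrays it changed sign for Sox9 (range -0.020 to 0.13), Il1b (-0.0091 to 0.088) and Tnf (-0.092 to 0.10, also -0.021 and -0.0057), and for Tnf (-0.086) in the alternative without 2 arrays. The cause was not tested.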

Other observations

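The genes described here were singled out after their values were seen, and no list stands behind them. Fos, a partner in the AP-1 transcription factor, was higher, at 10.07, 9.77, 9.34 and 9.65 on the day 28 arrays and 8.35, 8.32, 8.28 and 8.06 on the intact arrays (log2 difference 1.45 ± 0.19, adjusted p = 0.00011), and its relative Fosl1 was higher by 1.24 ± 0.18 (adjusted p = 0.00033). The orphan nuclear receptor gene Nr4a3 was higher, at 9.32, 9.00, 9.19 and 9.08 on the day 28 arrays and 7.74, 7.43, 7.36 and 7.35 on the intact arrays (log2 difference 1.68 ± 0.14, adjusted p = 2.4e-06), with Nr4a1 higher by 1.42 ± 0.23 and Nr4a2 by 1.24 ± 0.15. Adam12, a metalloproteinase of activated mesenchymal cells, rose by 1.42 ± 0.15 (adjusted p = 1.9e-05), and Nox4, an oxidase that makes hydrogen peroxide, by 1.56 ± 0.21 (adjusted p = 0.00015). Vcan, the large proteoglycan versican, rose by 1.02 ± 0.16 (adjusted p = 0.00045).

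Tshr, the receptor for thyrotropin, was lower, at 5.91, 5.82, 6.44 and 6.12 on the day 28 arrays and 8.12, 8.96, 8.73 and 9.20 on the intact arrays (log2 difference -2.68 ± 0.21, adjusted p = 1.5e-06). Npr3, which clears natriuretic peptides, was lower (log2 difference -2.25 ± 0.32, adjusted p = 0.00023), as was Ghr, the growth hormone receptor (-1.54 ± 0.14, adjusted p = 6.9e-06). Bche, the esterase butyrylcholinesterase, was lower, at 6.07, 6.42, 6.48 and 6.18 on the day 28 arrays and 8.38, 9.42, 9.23 and 9.71 on the intact arrays (log2 difference -2.90 ± 0.21, adjusted p = 7.6e-07). Lpl, the lipase that feeds fat cells (-2.11 ± 0.16, adjusted p = 1.1e-06), and Car3, a carbonic anhydrase abundant in fat and muscle (-2.24 ± 0.27, adjusted p = 5.9e-05), were lower too. The eosinophil granule genes Prg2 (-2.39 ± 0.64, adjusted p = 0.021) and Epx (-1.77 ± 0.49, adjusted p = 0.024) lost their calls without any of 4 and 5 of the 8 arrays.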
